A study of Homo sapiens with 12 samples.

Results

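H3K27ac peaks were described at 7 reference genes of a human breast cancer cell line. ACTB, GAPDH and EEF1A1 are housekeeping genes, which nearly every cell type transcribes. ALB, INS, MYOD1 and HBB belong to liver, pancreatic beta cells, skeletal muscle and red cells, and were taken as silent in breast cells. Members were all peaks that overlapped the 5 kb to each side of the start site of each gene, given to the nearest kb on the genome build hg19. Of 659281 peaks on chromosomes 1 to 22 and X in 9 peak lists, 36 lay in these 7 windows, with 12 at ACTB, 11 at GAPDH, 9 at EEF1A1, 4 at INS and 0 at ALB, MYOD1 and HBB.

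H3K27ac is histone H3 acetylated on lysine 27, a mark that acetyltransferases such as p300 and CBP place at active promoters and enhancers. Housekeeping promoters usually lie in CpG islands and carry the mark in most cell types, while lineage genes gain it mainly where their tissue-specific factors act. CDK8 and CDK19 are paralogous kinases of the Mediator complex, which links transcription factors at enhancers to RNA polymerase II.

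MDA-MB-231, a line derived from a metastatic breast cancer, was infected with lentivirus and grown for 96 h before chromatin immunoprecipitation from unfixed cells (native ChIP), with 250000 to 500000 cells used. The Control group received a lentivirus that the labels call EV-control, the CDK19KD group an shRNA against CDK19 and the CDK8KD group an shRNA against CDK8, with 3 libraries in each of the 3 groups. How many shRNA sequences were used for each gene, and whether infected cells were selected, is not given in the labels. Because nothing says that the replicates came from separate cultures, the p-values measure only the spread between these libraries, which may be technical.

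The lists held 62669 to 87530 peaks each and covered 8.62% to 10.5% of these chromosomes, with median peak widths of 1969 to 3163 bp. The fold enrichment, p and q of a peak are the authors' values for that peak in its own list, and the read depth behind them is unknown. Peaks with a −log10 q of at least 5 made up 17.1% to 43.9% of a list, and in each group the replicate 2 list had the lowest share. The Input samples and the levels of CDK8 and CDK19 were not analysed here, so the knockdowns were not checked.

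Promoters of the 4 members found in the RefSeq table (GRCh38.p14), each the 250 bases before the start, are shown to set the sequence of housekeeping promoters beside that of lineage promoters. Capitals mark 3 promoter motifs. The GC box has the letters GGGCGG and is bound by Sp1. The other two are the CCAAT box, named after its letters, and the core of the TATA box, searched for as TATAA. Each was searched on both strands. A GC box on the reverse strand therefore reads CCGCCC here, and a reverse CCAAT box reads as its reverse complement, ATTGG. No matches overlapped each other. The positions are chr12:6535014-6535263 on the plus strand for GAPDH, chr6:73521033-73521282 on the minus strand for EEF1A1, chr4:73404037-73404286 on the plus strand for ALB and chr11:2161210-2161459 on the minus strand for INS. These GRCh38 positions are not comparable with the hg19 positions of the peaks.
GAPDH: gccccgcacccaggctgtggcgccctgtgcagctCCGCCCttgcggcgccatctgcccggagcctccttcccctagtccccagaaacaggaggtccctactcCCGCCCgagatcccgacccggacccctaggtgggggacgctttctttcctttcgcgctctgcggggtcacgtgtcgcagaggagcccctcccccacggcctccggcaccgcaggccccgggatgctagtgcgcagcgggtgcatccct
EEF1A1: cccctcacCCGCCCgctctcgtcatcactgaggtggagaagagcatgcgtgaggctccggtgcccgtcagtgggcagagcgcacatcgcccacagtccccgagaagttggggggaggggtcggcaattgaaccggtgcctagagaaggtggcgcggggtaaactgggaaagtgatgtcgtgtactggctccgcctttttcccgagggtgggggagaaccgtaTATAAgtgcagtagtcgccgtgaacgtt
ALB: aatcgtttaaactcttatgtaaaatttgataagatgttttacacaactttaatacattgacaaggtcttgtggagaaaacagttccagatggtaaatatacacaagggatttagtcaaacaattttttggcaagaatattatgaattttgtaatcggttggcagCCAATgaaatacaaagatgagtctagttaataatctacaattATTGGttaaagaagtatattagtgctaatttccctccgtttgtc
INS: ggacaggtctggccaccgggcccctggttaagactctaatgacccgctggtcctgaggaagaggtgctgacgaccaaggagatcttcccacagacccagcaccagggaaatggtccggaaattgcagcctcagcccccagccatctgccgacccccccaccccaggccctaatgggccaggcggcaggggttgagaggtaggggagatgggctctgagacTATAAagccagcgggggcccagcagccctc

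The GAPDH promoter held 22 CpG and a GC content of 71.2%, and the EEF1A1 promoter 20 CpG and 61.6%. The ALB promoter was the most AT-rich of the 4, with 3 CpG and a GC content of 30%. The INS promoter had a GC content of 64.0% and 7 CpG, so it was as GC-rich as a housekeeping promoter but held fewer CpG. Over all 27305 promoters of the table the medians were 57.6% and 10 CpG. GAPDH had 2 GC boxes and EEF1A1 had 1, a motif present in 41.6% of all promoters. ALB had 2 CCAAT boxes, a motif in 32.9% of all promoters, and EEF1A1 and INS each had a TATA core, present in 19.9%, beginning 28 and 30 bases before the start. The start in the table for GAPDH lies 747 bp inside the RefSeq gene model, so its sequence is that of an internal start.

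All 3 housekeeping genes had a peak within 5 kb of the start site in 9 of 9 lists, whichever virus the cells had received. Their mean covered share, the percentage of the 10 kb window that lies under peaks, was 98.8% ± 1.92 at EEF1A1, 97.2% ± 5.60 at GAPDH and 72.1% ± 8.57 at ACTB (SD, n = 9 lists). For background, 17.6% of the 303554 windows of 10 kb along these chromosomes held a peak in all lists, with a median covered share of 42.7%, and 63.0% held none in any list. ACTB lay above 81.6% of the windows with a peak in all lists, GAPDH above 96.4% and EEF1A1 above 97.5%. The windows of the map lay on a fixed grid, while those of the genes were centred on start sites, so they are not fully alike.

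**Figure D1:**
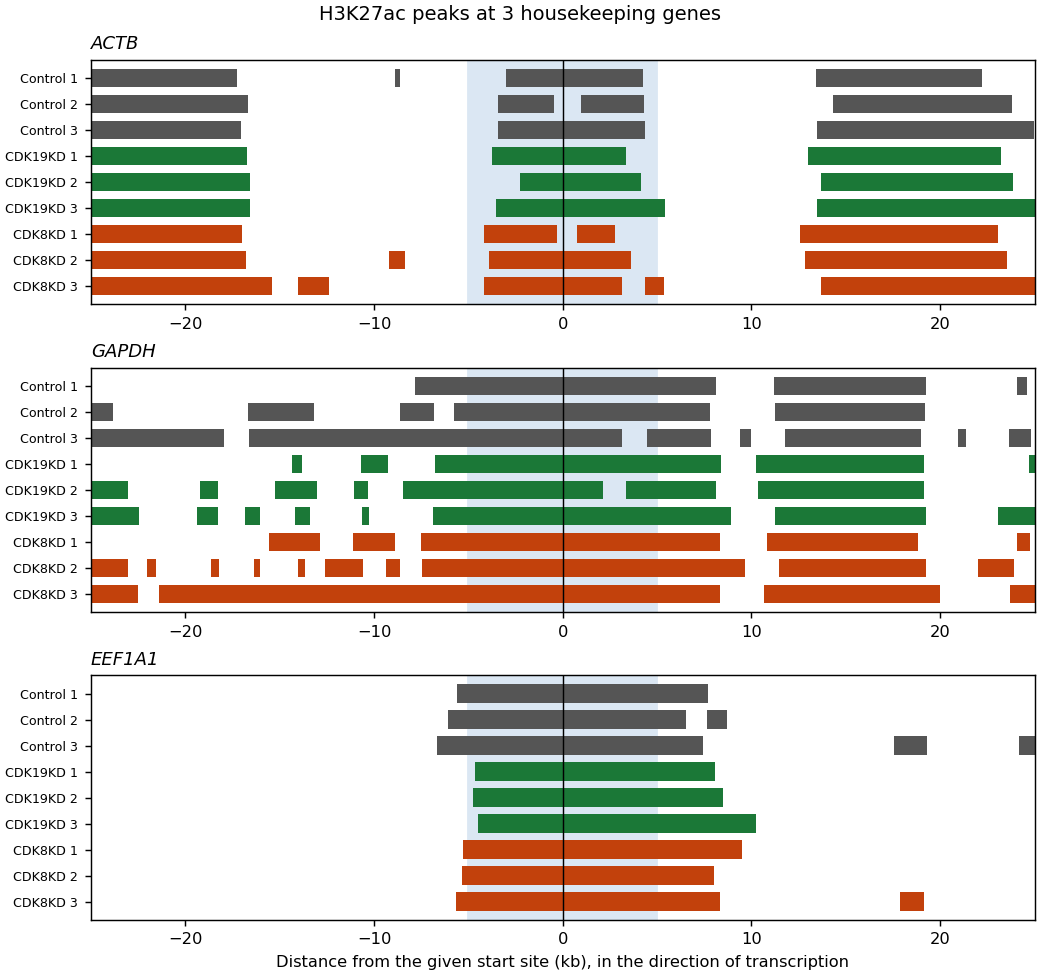
Peaks of each library within 25 kb of the start sites of ACTB, GAPDH and EEF1A1. The horizontal axis is the distance from the start site in kb in the direction of transcription, each row is a library, bars are peaks, the shaded band is the 10 kb window and colours are the groups. EEF1A1 had 1 peak over its start site in every library, while the peaks at ACTB broke at the start site in Control replicate 2 and CDK8KD replicate 1.

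EEF1A1 encodes the elongation factor that brings aminoacyl-tRNAs to the ribosome. Its window on chromosome 6, from 74226001 to 74236000, held 1 peak in each of the 9 lists, 12569 to 14818 bp wide. The deposited −log10 p was 36.1, 18.9 and 34.3 in Control replicates 1 to 3, 40.6, 20.1 and 41.6 in CDK19KD, and 35.0, 24.1 and 38.6 in CDK8KD. In each group replicate 2 was the lowest, the libraries whose lists also had the lowest shares of peaks with a −log10 q of at least 5. Ranked within its own list the peak stood between place 21 and place 144, above at least 99.8% of the peaks. Its fold enrichment was 6.59 to 9.29, against list medians of 2.46 to 2.97.

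The covered length at EEF1A1 was 10000 bp in all 3 Control and all 3 CDK8KD libraries, and 9672, 9749 and 9494 bp in CDK19KD replicates 1 to 3. The 3 CDK19KD libraries were thus below all others. The shortfall lay at the upstream edge of the peak, toward SLC17A5. That edge was 5626, 6057 and 6648 bp upstream of the start site in Control, 4672, 4749 and 4494 bp in CDK19KD, and 5302, 5336 and 5634 bp in CDK8KD. The downstream edge, toward MTO1, lay at 7718, 6511 and 7419 bp in Control, 8070, 8485 and 10235 bp in CDK19KD, and 9515, 8025 and 8312 bp in CDK8KD. There the Control libraries were the shortest and both knockdown groups overlapped, so the CDK19KD peaks sat further downstream at both ends than those of Control. These edges were not tested, and how common such an order of peak edges is in the map was not determined.

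A limma fit over all windows was used to test these shares, with Benjamini-Hochberg adjustment over the 78055 windows of the map whose mean share was at least 5% and the members above that minimum. The mean share at EEF1A1 was 100% ± 0 in Control and CDK8KD and 96.4% ± 1.31 in CDK19KD (SD, n = 3 each). The difference from Control was -3.62 percentage points (SE 0.817, adjusted p = 0.219) and that from CDK8KD -3.62 (SE 0.817, adjusted p = 0.0945), so neither passed the threshold of 0.05. The limma result depended on the setting. Against CDK8KD the difference was -3.62 with an adjusted p of 0.0446 when each list was cut to its 20000 strongest peaks and of 0.609 with robust moderation, and against Control the adjusted p was 0.0804 and 0.674. It was 0 in both comparisons within 2.5 kb to each side and with windows moved 1 kb left, and with windows moved 1 kb right it was -12.4 against Control (adjusted p = 0.0569) and -7.86 against CDK8KD (adjusted p = 0.0687). In the whole map, 0.0782% of windows were called between CDK19KD and Control and 1.01% between CDK19KD and CDK8KD. All CDK19KD lists lay below all Control lists in 7.24% of windows and below all CDK8KD lists in 15.4%, so such an order was common in the map. A fully covered window cannot show a wider peak, which limits this measure at EEF1A1 and GAPDH.

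GAPDH, the glycolytic enzyme that oxidises glyceraldehyde 3-phosphate, lies on chromosome 12, with the window from 6639001 to 6649000. Its covered length was 10000, 10000 and 8660 bp in Control, 10000, 8804 and 10000 bp in CDK19KD, and 10000 bp in each CDK8KD library. The groups overlapped, and the start site was inside a peak in 9 of 9 lists. The 2 incomplete libraries, Control replicate 3 and CDK19KD replicate 2, had peaks on both sides of a gap of 1340 and 1196 bp downstream of the start site. Peaks at GAPDH ran far past the window, with the outer edges 13548 to 29703 bp apart, and reached 5758 to 21383 bp upstream, the side of NCAPD2, and 7789 to 9659 bp downstream, the side of IFFO1. The strongest peak stood above 72.8% to 87.5% of its own list, with a −log10 p of 4.94 to 15.7, so the GAPDH peaks were broad and of moderate strength, below EEF1A1 in every list.

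Mean shares at GAPDH for the Control, CDK19KD and CDK8KD groups were 95.5% ± 7.74, 96.0% ± 6.91 and 100% ± 0 (SD, n = 3 each). The limma differences were 0.48 percentage points between CDK19KD and Control (adjusted p = 0.992), 4.47 between CDK8KD and Control (adjusted p = 0.679) and -3.99 between CDK19KD and CDK8KD (adjusted p = 0.772). For peaks with a −log10 q of at least 5 these differences were 28.25, 37.8 and -9.55 points (limma adjusted p = 0.967, 0.743 and 0.967). Under that cut Control replicate 2 lost its only GAPDH peak, which had a −log10 q of 3.42. CDK19KD replicate 2 lost a peak with a −log10 q of 3.70. None of these differences passed, against 0.716% of windows called between CDK8KD and Control in the whole map.

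ACTB encodes beta-actin of the cytoskeleton and lies on chromosome 7, with the window from 5565001 to 5575000. It had the least covered window of the 3 housekeeping members. The covered length was 7288, 6277 and 7743 bp in Control, 7098, 6457 and 8556 bp in CDK19KD, and 5932, 7541 and 7976 bp in CDK8KD. The groups overlapped. The start site itself was inside a peak in 7 of 9 lists. In Control replicate 2 and CDK8KD replicate 1, peaks lay on both sides of it, separated by gaps of 1465 and 1037 bp.

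The strongest ACTB peak had a −log10 p of 8.64, 3.38 and 11.4 in Control, 8.03, 3.44 and 13.8 in CDK19KD, and 6.07, 4.22 and 8.41 in CDK8KD. Replicate 2 was again the lowest of each group. Within its own list that peak stood above 68.2%, 54.6% and 88.1% of peaks in Control, 65.2%, 49.1% and 77.9% in CDK19KD, and 58.7%, 59.1% and 74.1% in CDK8KD. A housekeeping gene therefore ranked in the middle of a list in several libraries. Mean covered shares were 71.0% ± 7.504, 73.7% ± 10.8 and 71.5% ± 10.8 in Control, CDK19KD and CDK8KD (SD, n = 3 each). By limma, CDK19KD differed from Control by 2.68 percentage points (SE 7.47, adjusted p = 0.932), CDK8KD from Control by 0.47 (SE 7.47, adjusted p = 1) and CDK19KD from CDK8KD by 2.21 (SE 7.47, adjusted p = 0.960). With such standard errors a difference of several points at ACTB was not detectable.

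**Figure D2:**
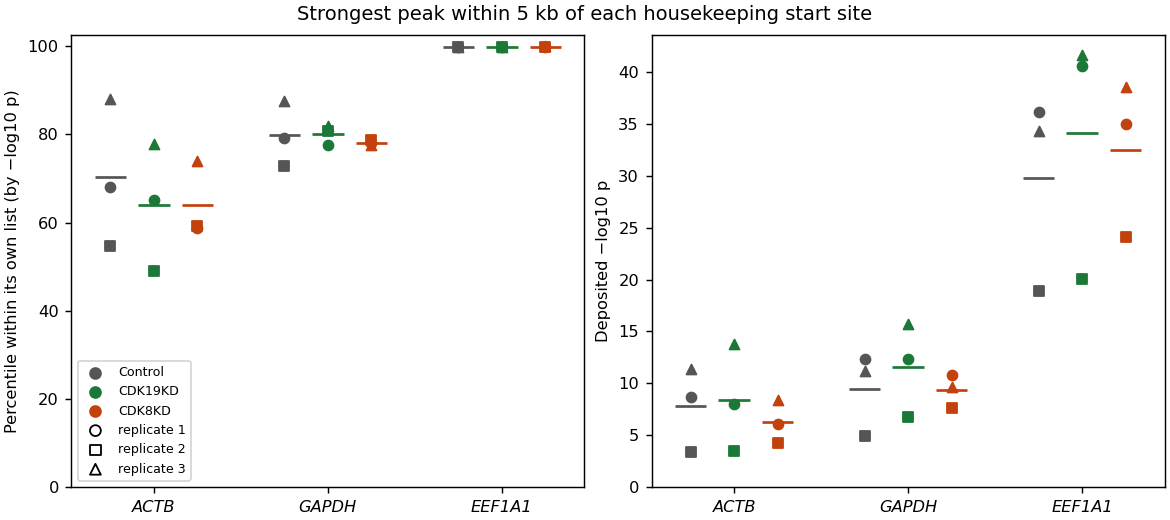
Strongest peak within 5 kb of each housekeeping start site in each library. The left vertical axis is the percentile of that peak within its own list by −log10 p and the right one its deposited −log10 p; shapes are the replicate numbers, colours the groups and lines the group means. EEF1A1 was above 99.8% of peaks in every list, ACTB ranged from 49.1% to 88.1%, and replicate 2 had the lowest −log10 p in every group at all 3 genes.

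The 4 lineage genes had no peak over the start site in any list. ALB, which encodes serum albumin, MYOD1, the transcription factor that starts the muscle programme, and HBB, the beta-globin of adult haemoglobin, had 0 covered bp in all 9 libraries. Their windows were chromosome 4 from 74265001 to 74275000, chromosome 11 from 17736001 to 17746000 and chromosome 11 from 5243001 to 5253000. INS, which encodes insulin, had 0 covered bp in 7 libraries and short peaks in CDK8KD replicates 2 and 3. In all, a peak was present in 2 of 36 pairs of lineage gene and list, against 27 of 27 pairs for the housekeeping genes. The lineage genes thus had no called peak over their start sites, as given to the nearest kb, in a line labelled as breast cancer cells. At INS, peaks ended 683 and 603 bp away in CDK8KD replicates 2 and 3, a distance close to that rounding. Peak lists cannot show acetylation too weak to be called.

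**Figure D3:**
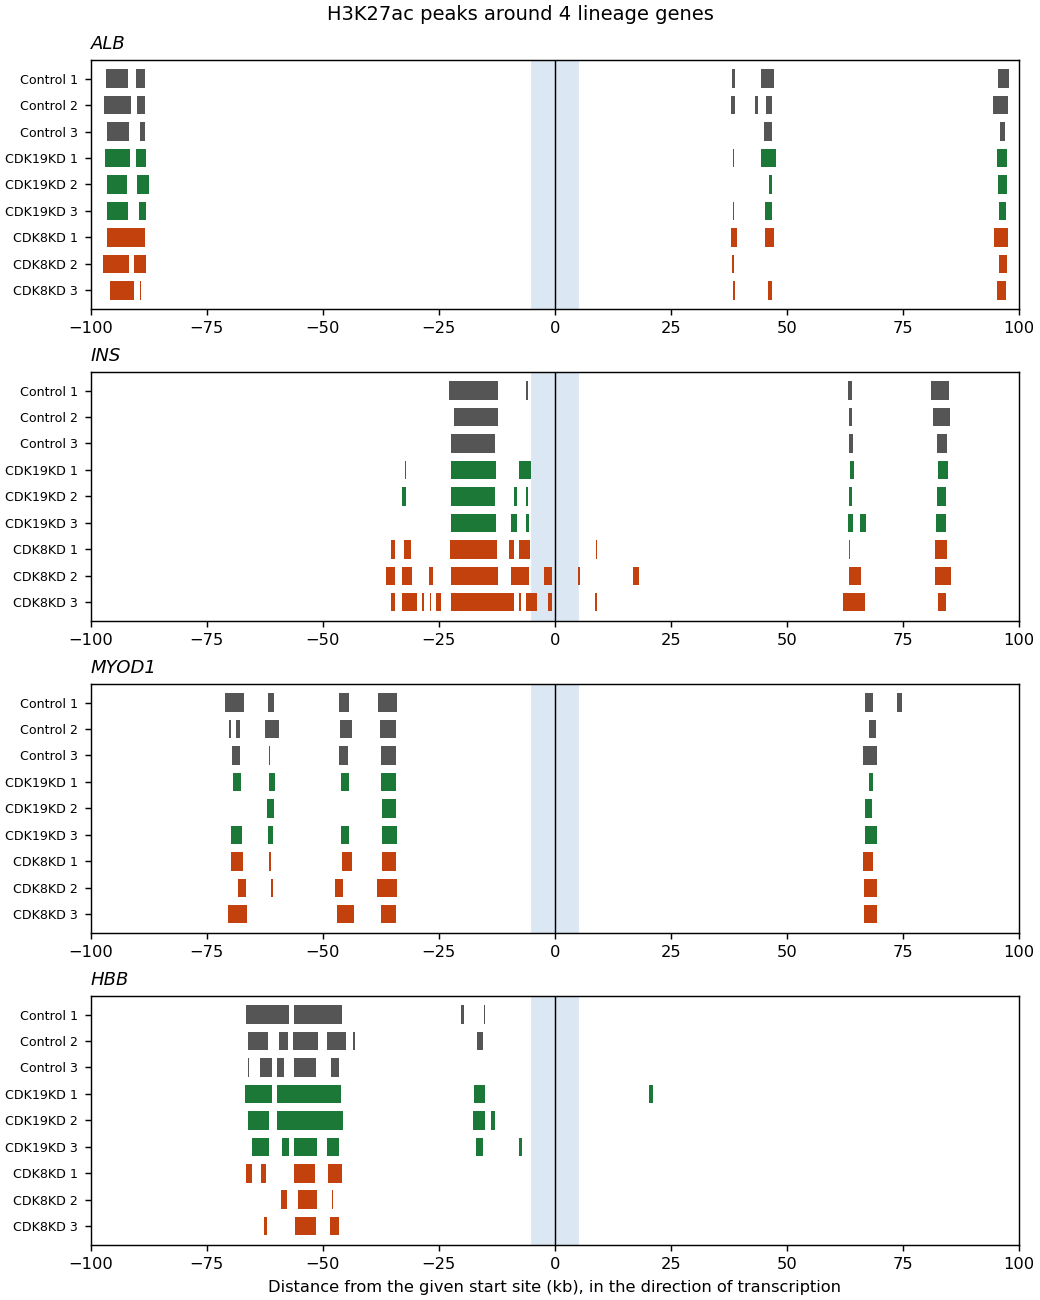
Peaks of each library within 100 kb of the start sites of ALB, INS, MYOD1 and HBB. The horizontal axis is the distance from the start site in kb in the direction of transcription, each row is a library, bars are peaks, the shaded band is the 10 kb window and colours are the groups. The only peaks in a shaded band were those at INS in CDK8KD replicates 2 and 3. Upstream of HBB, peaks covered parts of a region in all 9 libraries, to differing extents.

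At ALB the nearest peak lay downstream, toward AFP, at 38067, 37870 and 45077 bp in Control, 38265, 46060 and 38369 bp in CDK19KD, and 37923, 38181 and 38299 bp in CDK8KD. On the upstream side, toward ANKRD17, the nearest peak was 87418 to 89254 bp away in all 9 lists. Within 100 kb to each side 5 regions were found when peaks that overlapped between lists were merged, 2 of them in all lists. The share covered over that distance was 4.31% to 7.16%, and the groups overlapped.

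At MYOD1 the nearest peak was in the same place in every library, 34003 to 34313 bp upstream, on the side of OTOG. This region, on chromosome 11 from 17702662 to 17706997, held 9 peaks with a −log10 q of at least 5. Its −log10 p was 7.94 to 20.5 and it stood above 81.5% to 95.9% of its own list, where the strongest ACTB peak stood above 49.1% to 88.1%. On the side of KCNC1 the nearest peak was 66434 to 67738 bp away. The share covered within 100 kb was 3.05% to 7.18%, again with overlapping groups.

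The beta-globin genes HBE1, HBG2, HBG1, HBD and HBB lie in a row, and the locus control region, an erythroid enhancer cluster, lies beyond HBE1 on the upstream side of HBB. In all 9 lists peaks covered parts of chromosome 11 from 5293135 to 5314699, which is -66699 to -45135 bp from the HBB start site and beyond HBE1. The −log10 p there ranged from 2.14 to 15.6, and 8 of its peaks had a −log10 q of at least 5. A weaker region from -17583 to -15001 bp was found in 5 lists, 2 of Control and 3 of CDK19KD, and in 0 of CDK8KD. The nearest peak to HBB was accordingly at 15019, 15422 and 46592 bp in Control, 15159, 12863 and 7089 bp in CDK19KD, and 45931, 47773 and 46613 bp in CDK8KD.

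Within 100 kb of HBB the covered share was 10.4%, 8.64% and 5.36% in Control, 11.4%, 11.1% and 7.47% in CDK19KD, and 5.01%, 2.83% and 3.60% in CDK8KD. All CDK8KD libraries lay below all others, an order seen against Control in 5.72% and against CDK19KD in 4.32% of windows of that width past the minimum share. In limma on those windows CDK8KD minus Control was -4.31 percentage points (SE 1.54, adjusted p = 0.187), and CDK19KD was 6.16 above CDK8KD (SE 1.54, adjusted p = 0.108). Neither passed, where 0.72% and 0.222% of all such windows did. CDK19KD and Control differed by 1.85 points (adjusted p = 0.628), in a comparison in which limma called 0% of 7219 windows, with 727 at an unadjusted p under 0.05. This width was chosen after the peaks around the lineage genes had been seen.

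INS was the lineage member with peaks closest to its start site, in the window on chromosome 11 from 2177001 to 2187000. CDK8KD replicate 2 had a peak of 1664 bp that ended 683 bp upstream of the start site and a peak of 593 bp at the downstream end of the window. CDK8KD replicate 3 had a peak of 959 bp that ended 603 bp upstream and another of 2351 bp further upstream. The −log10 p of these 4 peaks was 2.27 to 4.06, their −log10 q 1.08 to 2.72, and they stood above 5.88% to 57.6% of their own lists. They were thus weak peaks, all under a −log10 q of 5. The strongest ACTB peak was also under 5 in Control replicate 2, CDK19KD replicate 2 and CDK8KD replicates 1 and 2. In CDK8KD replicate 2 it had a −log10 q of 2.81, against 2.66 for the strongest INS peak, the one at the downstream end of the window. The INS peak nearest the start site in that list had a −log10 q of 1.54. In the other lists the strongest ACTB peak was above 5.

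The distance from the INS start site to the nearest peak was 5707, 12366 and 12891 bp in Control, 5201, 5896 and 5551 bp in CDK19KD, and 5363, 683 and 603 bp in CDK8KD. In 5 libraries it was therefore only just outside the 5 kb limit. Since start sites were given to the nearest kb, a window moved by 1 kb changed the count of lineage pairs with a peak from 2 to 7 in 1 direction and left it at 2 in the other. The mean share of INS over the 9 lists was 4.26%, under the 5% needed for the test. Without that minimum, CDK8KD was 12.8 percentage points above Control in limma (SE 4.78, adjusted p = 0.380).

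Within 10 kb to each side of INS the covered share was 2.21%, 0% and 0% in Control, 12.8%, 4.18% and 9.91% in CDK19KD, and 18.1%, 30.6% and 26.0% in CDK8KD. Every CDK8KD library was above every other library, an order seen against Control in 14.4% and against CDK19KD in 17.8% of windows of 20 kb past the minimum share. The means were 0.735% ± 1.27, 8.96% ± 4.39 and 24.9% ± 6.35 (SD, n = 3 each). The mean over all 9 lists passed the 5% minimum only through the CDK8KD libraries, so the test that bears on it is the one with no minimum share. In that limma fit CDK8KD was 24.2 percentage points above Control (SE 3.69, adjusted p = 0.0505), higher in 3 of 3 libraries, and did not pass. CDK19KD differed from Control by 8.23 points (SE 3.69, adjusted p = 0.530) and from CDK8KD by -15.9 (SE 3.69, adjusted p = 0.107).

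With the minimum in place the adjusted p between CDK8KD and Control was 0.0384, which is not taken as a call because the CDK8KD lists themselves brought the window into the test. Among windows of 20 kb past the minimum, 0.929% were called between CDK8KD and Control, 0.0127% between CDK19KD and Control and 0.937% between CDK19KD and CDK8KD. With only peaks of a −log10 q of at least 5, and no minimum share, the difference between CDK8KD and Control was 1.95 points (adjusted p = 0.772).

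In all 9 lists peaks covered parts of chromosome 11 from 2185936 to 2204831, on the side of TH, the gene of tyrosine hydroxylase. This region, merged over the lists, lies -22831 to -3936 bp from the INS start site. The −log10 p there ranged from 2.27 to 23.9, and 8 of its peaks had a −log10 q of at least 5. Its peaks came nearest to the start site in CDK8KD replicate 3, and in Control no closer than 5707 bp. Of 12 regions within 100 kb of INS, 3 were in all lists and 8 were found in CDK8KD lists only, 4 of these in a single list. Over the whole map, 0.467% of windows of 10 kb had a peak in at least 2 CDK8KD lists and in no other group, and 0.847% had one in at least 2 Control lists only. These windows have a fixed width, unlike the merged regions. Their shares are thus no background for the 8 regions, for which none was computed. The covered share within 100 kb was 7.85%, 6.81% and 6.26% in Control, 7.81%, 6.78% and 8.16% in CDK19KD, and 9.66%, 14.4% and 15.1% in CDK8KD. All CDK8KD libraries were above the others, as in 14% of such windows against Control and 21.8% against CDK19KD. The limma difference between CDK8KD and Control was 6.08 points (SE 1.51, adjusted p = 0.0871) and did not pass. The lists as a whole also differed, covering 8.66% to 10.4% of the chromosomes in Control, 8.62% to 8.94% in CDK19KD and 9.62% to 10.5% in CDK8KD.

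**Figure D4:**
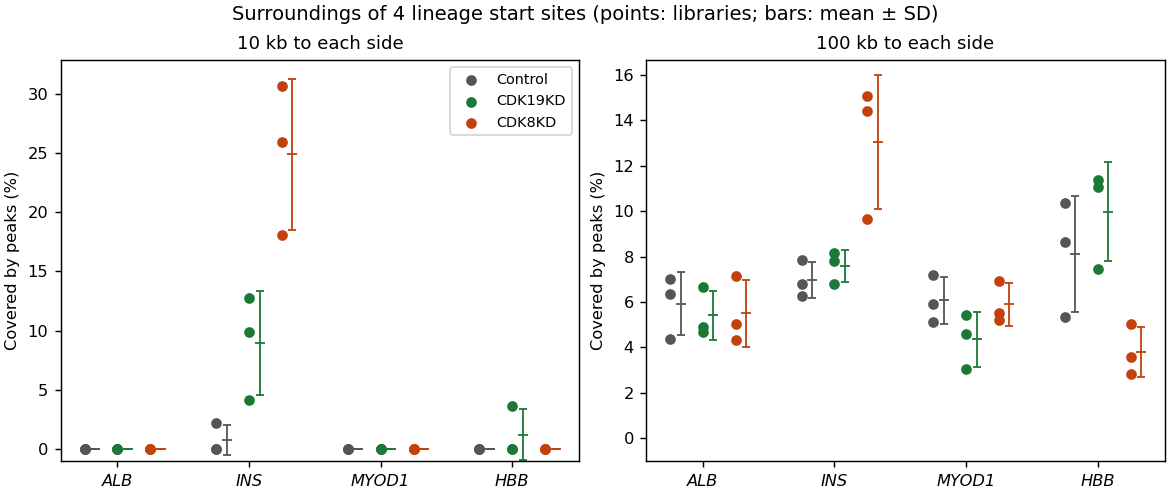
Share of the surroundings of the 4 lineage start sites covered by peaks, in percent, within 10 kb (left) and 100 kb (right) to each side. Points are libraries, and bars are the group mean ± SD (n = 3). CDK8KD libraries were the highest at INS at both widths and the lowest at HBB within 100 kb, while the groups overlapped at ALB and MYOD1.

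Other genes of the same kinds gave the same picture for housekeeping genes and a more mixed one for lineage genes. All 11 further constitutive genes reported here, among them those of ribosomal proteins and tubulin, had a peak within 5 kb in 9 of 9 lists, and the start site was inside it in 98 of 99 pairs of gene and list. The exception was HPRT1, a purine salvage enzyme, in Control replicate 3. Their mean covered share had a median of 72.2%, near that of ACTB, and ran from 22.5% at HPRT1 to 92.9% at TBP, the TATA-binding protein. With only peaks of a −log10 q of at least 5, 7 of the 11 had a peak in all 9 lists. The median share over windows of the fixed grid with a peak in all lists was 42.7%. EEF1A1 and GAPDH exceeded every one of these 11 genes in mean covered share, and the highest mean percentile among them was 96.5%, at TBP, against 99.9% for EEF1A1.

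Of 15 further lineage genes, 8 had no peak in any list, 3 had one in some lists and 4 had one in all 9. The last were MYF6, a muscle transcription factor, with a mean share of 24.9%, APOA1, an apolipoprotein made in liver, with 18.7%, HBE1, the embryonic beta-type globin, with 18.2%, and GCG, which encodes glucagon, with 6.56%. The others were HBD in CDK19KD replicates 2 and 3, HBG1 in Control replicate 1 and SST in CDK19KD replicate 1, with mean shares of 0.970%, 0.734% and 0.581%. The start site was inside a peak in only 2 of 135 pairs, both at APOA1, in CDK8KD replicates 2 and 3. The pairs HBB and HBD, HBG1 and HBG2, and HBA1 and HBA2 share window sequence or are near-identical copies, so they are not independent and reads may be assigned to either copy. In all 9 lists the HBE1 window also reached into the region beyond HBE1 described above for HBB, so both descriptions rest on the same peaks.

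**Figure D5:**
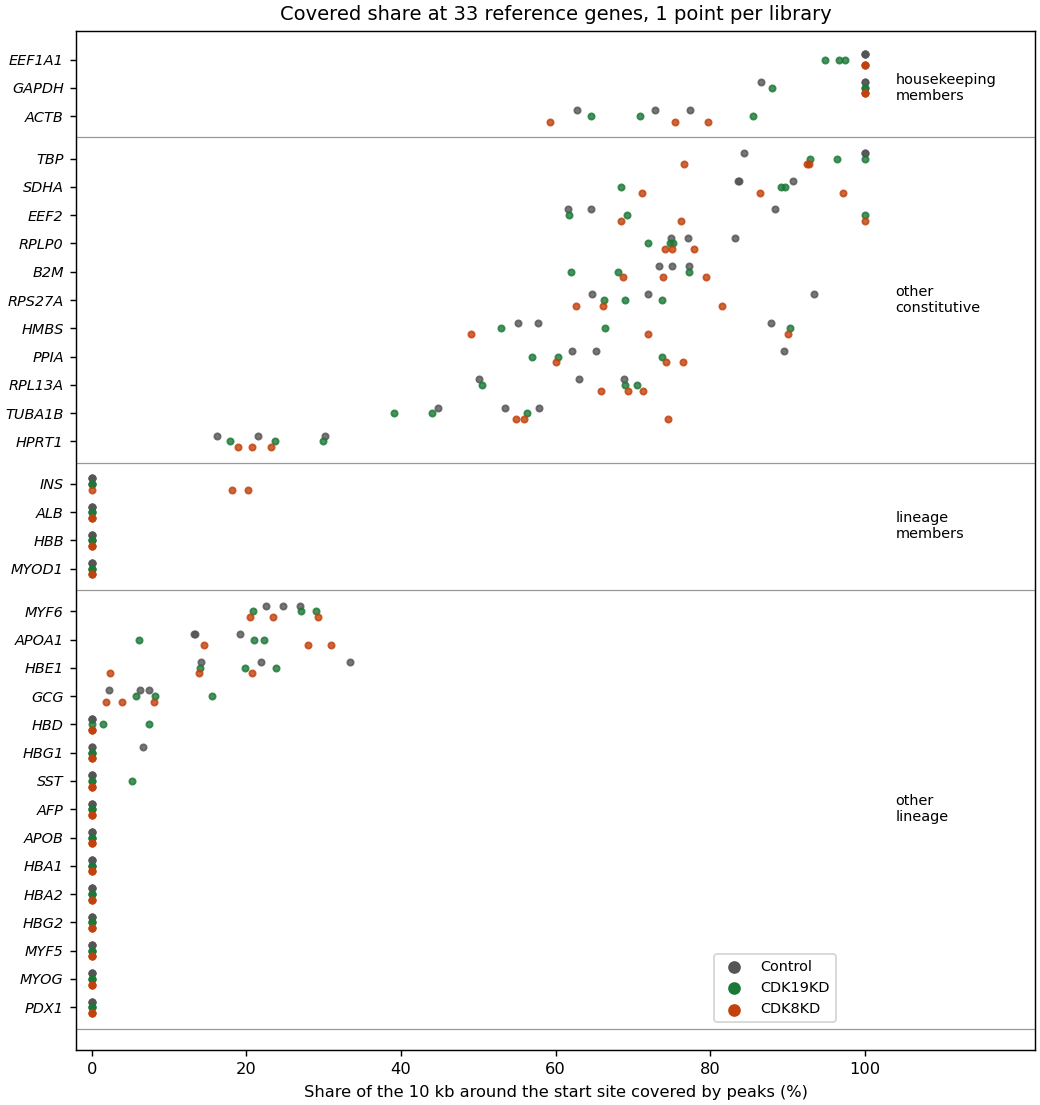
Share of the 10 kb around the start site covered by peaks, in percent, for the 7 members, 11 other constitutive genes and 15 other lineage genes. Each point is a library and colours are the groups; genes are ordered by mean share within each set. All constitutive genes were above 0% in all 9 libraries, HPRT1 being the lowest at 22.5% on average, and no lineage gene exceeded an average of 24.9%.

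Of the further genes, 10 of 11 constitutive and 7 of 15 lineage genes had a promoter in the table. Their median GC content was 63.4% and 45.2%, and their median CpG counts 25.5 and 2, against 57.6% and 10 over all promoters. In CpG, EEF1A1 and the internal GAPDH start thus resembled the constitutive promoters, and ALB the lineage ones. INS, with 7 CpG, lay between the medians and within both ranges, 4 to 38 for constitutive and 1 to 10 for lineage promoters.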

How the data were processed

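H3K27ac native ChIP-seq of 9 libraries was analysed, in 3 groups assigned by the sample titles. The authors deposited a broad peak list for each library, which means calling was done without pooling. Peaks were called with MACS2 on hg19, and deepTools is also named, per the submitters' processing notes; versions, aligner, settings and control are not given in the sources used here. Each deposited peak has a score (10 times its −log10 q as a whole number or nearly so), a fold enrichment as a ratio, and a −log10 p and −log10 q, all the authors' values. They describe or rank peaks within a list only. Read depth is unknown and no counts were used.

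The members and the lists of other genes were chosen with earlier results of these data known. All 7 members are named. Of the other genes, those that go against their list are named, otherwise the lowest and highest by covered share. Start sites of the other genes were set to the nearest kb by hand, without an hg19 annotation. Names and neighbours came from the RefSeq gene table, in which 33 of 33 genes matched. 1 gene of the constitutive list is not reported here.

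The share of 10 kb windows covered by peaks (overlap of at least 1 bp) was tested with limma 3.58.1 (R 4.3.3; lmFit, eBayes with trend) over the members and all windows whose share averaged 5% or more, with Benjamini-Hochberg adjustment per comparison at 0.05. The script was tested on simulated data. Alternatives were a stricter peak threshold (−log10 q of 5), keeping only the 20000 strongest peaks per list, other window widths and shifts, no minimum share, scaling by total covered length, robust moderation, a replicate block and leaving out each library. Windows of 100 kb to each side, and the alternatives for INS at 10 kb, were chosen after seeing the data. Libraries with the same replicate number in the titles tended to deviate together. Deviations from the group means correlated at 0.138 to 0.611 (9 pairs), against -0.612 to 0.203 between other numbers (18 pairs). Because deviations within a group cancel out, part of this contrast is built in. Control replicate 2 correlated at 0.203 with CDK8KD replicate 1 and at 0.138 with CDK8KD replicate 2. The main fit used no replicate block.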

Additional observations from a re-analysis of the deposited data

How the results depend on the processing

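None of the 9 limma tests of the housekeeping windows passed. Unadjusted, 2 were under a limma p of 0.05, both at EEF1A1 and both using the same CDK19KD libraries. Of 78055 windows of the map, 7742 were under it between CDK19KD and Control and 11387 between CDK19KD and CDK8KD. In 2 of the alternatives 1 member test passed. With the 20000 strongest peaks it was EEF1A1 between CDK19KD and CDK8KD (-3.62 points, adjusted p = 0.0446). With 10 kb to each side it was INS between CDK8KD and Control, a window that passed the minimum share only through CDK8KD and had an adjusted p of 0.0505 without it. With the minimum kept, the limma adjusted p of this INS window was 0.0407 with the replicate block, 0.0475 scaled by total covered length and 0.0415 with robust moderation. Leaving out 1 library gave 0.0271 to 0.140, under 0.05 in 2 of 9 fits. These are not taken as calls either, for the same reason. The count of lineage pairs with a peak moved from 2 to 0 for peaks past a −log10 q of 5, for the 20000 strongest and at the start position itself, to 8 with 10 kb to each side and to 7 with windows moved 1 kb right. Housekeeping pairs went from 27 to 22, 20 and 25 under the first 3 of these, and the constitutive genes with a peak in all 9 lists from 11 to 7 under both peak filters. For peaks past a −log10 q of 5 the median distance to the nearest peak grew from 38265 to 91505 bp at ALB, 5551 to 12714 bp at INS and 15422 to 51241 bp at HBB. In the 10 kb windows of the main fit the replicate block gave 0 member windows called and left the EEF1A1 adjusted p at 0.198 and 0.0979. It changed no call of a member at that width. In the whole map it moved the windows called from 61 to 2 between CDK19KD and Control and from 559 to 339 between CDK8KD and Control, and other alternatives gave 0 to 1205 and 15 to 2060.

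With the 20000 strongest peaks the GAPDH differences from Control were 28.25 points for CDK19KD and 37.8 for CDK8KD, as with a −log10 q of 5. Both cuts removed the only GAPDH peak of Control replicate 2, which stood at place 23982 of its list. Signs turned only for differences that were not called. For ACTB, CDK8KD minus Control was -25.6 (−log10 q of at least 5), -1.28 (20000 strongest) and -1.39 (scaled), and CDK19KD minus CDK8KD -0.188 (10 kb) and -7.53 (100 kb). For GAPDH, CDK19KD minus Control was -2.43 (2.5 kb), -2.34 (10 kb), -3.92 (100 kb) and -0.303 (1 kb left). Scaling by total covered length gave 8.46 and 6.33 at EEF1A1 for CDK19KD against CDK8KD and Control, and 7.96 at GAPDH against CDK8KD; by construction a fully covered window then returns the ratio of total lengths. Leaving out 1 library turned CDK19KD minus Control at ACTB to -1.45 and -3.25 (range over the 9 fits -3.25 to 7.24), CDK8KD minus Control there to between -3.66 and -1.49 (-3.66 to 6.56), CDK19KD minus CDK8KD there to -3.72 and -3.88 (-3.88 to 6.77), and CDK19KD minus Control at GAPDH to between -3.99 and -1.51 (-3.99 to 4.47). The cause of the other changes was not tested. Precision is limited by 3 lists per group, unknown read depth and start sites given to the kb.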
